A study of Homo sapiens with 24 samples.

Results

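The GADD45 and sestrin families of stress genes were followed in the human ovarian cancer cell line A2780 (platinum-sensitive) and its isogenic platinum-resistant derivative A2780cis after 5-FdU-ECyd treatment. The 7 genes were chosen by symbol from the 63299 genes of the deposited table. They were GADD45A, GADD45B, GADD45G, GADD45GIP1, SESN1, SESN2 and SESN3. Each line was left untreated or given 1 µM 5-FdU-ECyd for 6 h or 12 h, with 3 libraries in each of the 8 groups.

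Untreated cells received fresh standard growth medium at the time at which the other flasks received the drug. The cells were harvested after a further 6 h or 12 h. 5-FdU-ECyd is a prodrug that joins 2 antimetabolites, a fluorinated deoxyuridine and an ethynyl cytidine, which interfere with DNA and RNA synthesis. The study rests on 1 sensitive and 1 resistant line. A2780cis, but not A2780, was exposed to 1 µM cisplatin for 1 passage in every few to keep its resistance, and it was seeded at a higher cell number, so line, cisplatin history and density cannot be told apart. The study describes the 3 libraries of a group as biological replicates, and the p-values measure the spread between them.

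Libraries held between 11077368 and 21901406 counts. The share of counts on mitochondrial genes was 5.10% to 6.54% in untreated libraries, 6.95% to 7.61% after 6 h of treatment and 8.32% to 9.94% after 12 h, so it rose with treatment beside every response given here, and its part in them was not tested. Of the markers of ovarian and Müllerian epithelium, PAX8, WT1 and MUC16 had at most 2 counts and ESR1 at most 5 counts in any library. The epithelial list, with 3 of its 4 genes above 3 counts in every group and CDH1 at no more than 2 counts, summed to 2.09 to 6.45 CPM in A2780 and to 25 to 35.8 CPM in A2780cis, where KRT18 had 20.6 to 28.4 CPM. Of 8 markers of other cell types, PTPRC, CD3E, VWF and PECAM1 (immune and endothelial cells) had at most 2 counts. The 8 summed to 15.1 to 22.9 CPM in A2780 and to 7.23 to 9.97 CPM in A2780cis, mostly from DCN, LUM, PDGFRB and CD68. EPCAM and CD68 went against the sums of their lists. EPCAM had 0.473 to 1.96 CPM in A2780 and 0.073 to 1.12 CPM in A2780cis. CD68 had 2.22 to 3.88 CPM in A2780 and 5.70 to 8.38 CPM in A2780cis. The sums of these 2 lists moved with the line. In A2780 they also moved with treatment: the epithelial sum was 2.09 to 3.22 CPM untreated and 3.58 to 4.81 CPM treated at 6 h, and 3.24 to 4.32 CPM and 5.29 to 6.45 CPM at 12 h, with KRT18 called higher at both times (log2 FC 1.02 and 0.69). The sum of the 8 other markers in A2780 at 12 h was 19.1 to 19.2 CPM untreated and 15.1 to 16.1 CPM treated, with none of the 4 tested genes called. In A2780cis the epithelial sums of treated and untreated libraries overlapped at both times, but 1 of the 3 tested epithelial genes was called higher at 12 h. The part of these marker levels in the results was not tested.

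GADD45 proteins are small acidic proteins without enzymatic activity. They are induced by DNA damage, and they bind the kinase MAP3K4 at the head of the p38 and JNK cascades, the replication clamp PCNA and the cyclin-dependent kinase inhibitor p21. Sestrins are stress-induced proteins that restrain the growth kinase complex mTORC1 by binding the GATOR2 complex, support AMPK and autophagy, and help to keep peroxiredoxins reduced. GADD45A and SESN1 are classical p53 targets, SESN2 answers to both p53 and the amino acid and endoplasmic reticulum stress factor ATF4, SESN3 is best known as a FOXO target, and GADD45B is an early response gene of NF-kappa B and TGF-beta signalling. GADD45GIP1 belongs to neither family by sequence: it binds GADD45 proteins and is a component of the large subunit of the mitochondrial ribosome.

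Of the 7 genes, 6 passed the filter on low counts and were tested, and GADD45G was not. Levels are CPM, that is, counts relative to the library size after TMM scaling, and changes are log2 fold changes (log2 FC) with their standard error (SE). The adjusted p-values of genes are those of the quasi-likelihood test of edgeR, adjusted by Benjamini-Hochberg over all 20240 tested genes, with a threshold of 0.05. In bulk RNA, a change in the share of cells that express a gene and a change in RNA per cell cannot be told apart.

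In A2780 at 6 h, 5 of the 6 tested members rose and none fell, where 16% of all genes tested rose and 29.4% changed in either direction. At 12 h in A2780, 4 members rose and 1 fell, beside 28.6% of all genes higher and 26.1% lower (54.8% either way). In A2780cis at 6 h, 5 members rose, against 14.4% of all genes (30.7% either way). At 12 h in A2780cis, 4 members rose and none fell, against 31% of all genes higher and 28.9% lower (59.9% either way). GADD45A, GADD45B, SESN1 and SESN2 were the members up-regulated in all 4 comparisons. Their 3 treated libraries lay above the 3 untreated ones in each line at each time. The share of all genes with such a separation was not counted, so it only describes these members.

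**Figure D1:**
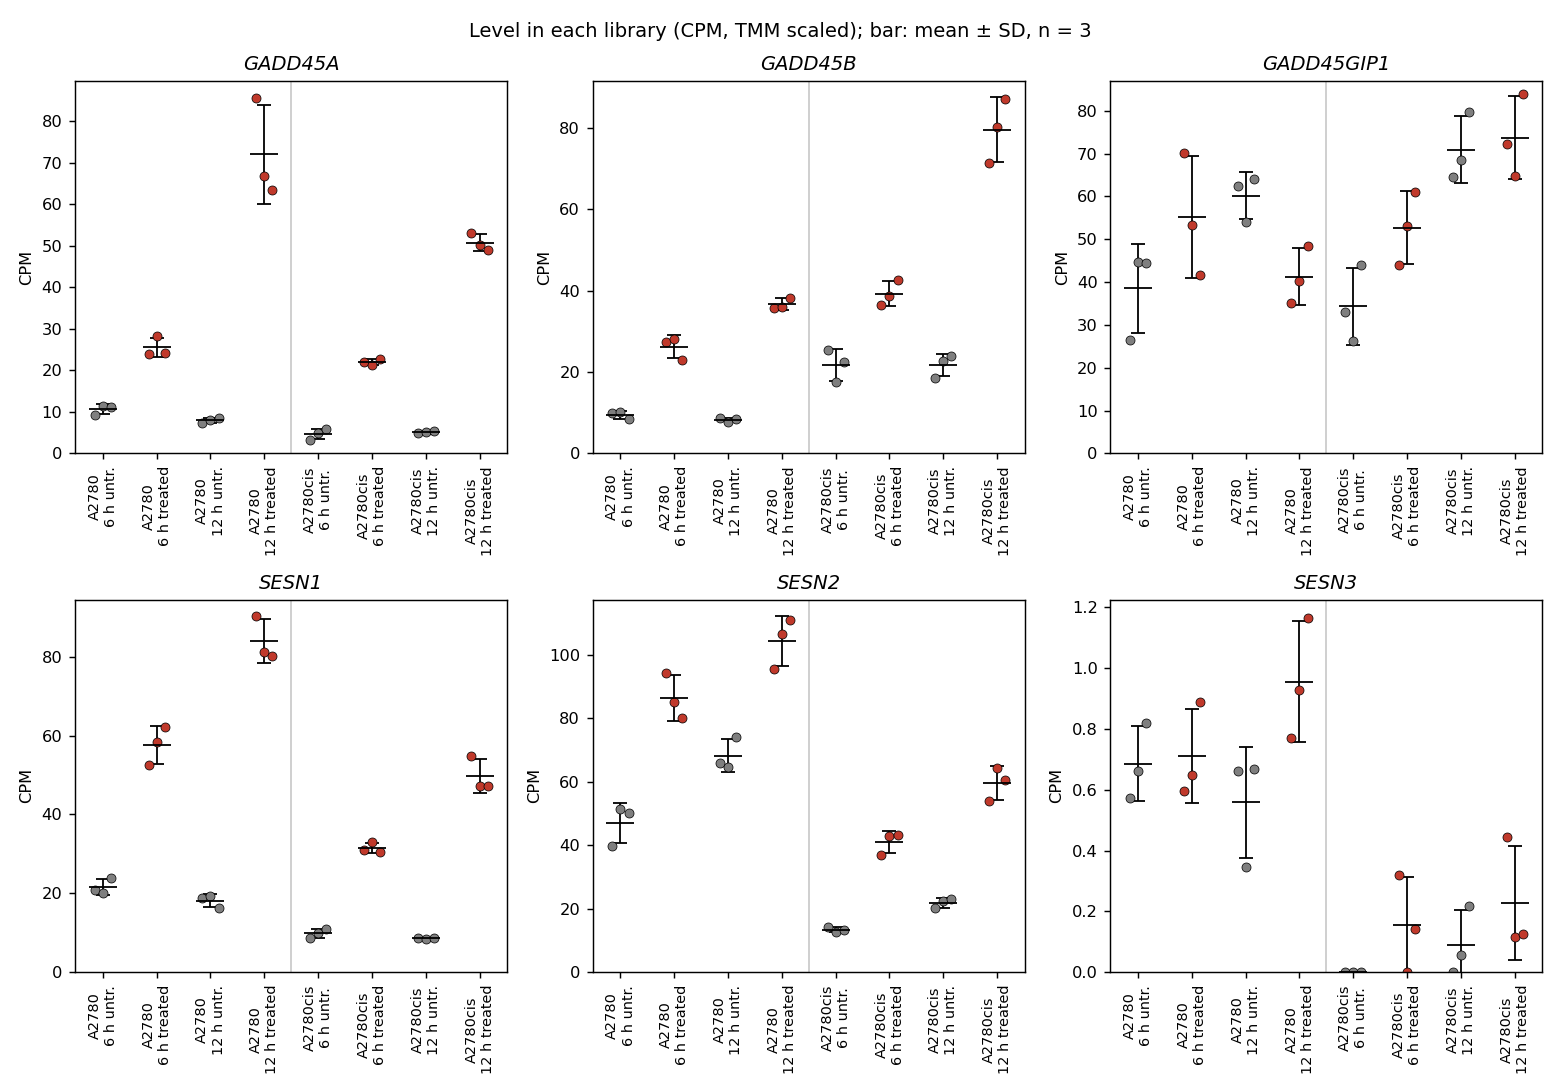
CPM in each library of the 8 groups for the 6 tested members (x axis: line, time and treatment, with untreated libraries in grey and treated libraries in red), with the mean and SD of 3 libraries. SESN3 had 0 counts in 5 libraries. GADD45A, GADD45B, SESN1 and SESN2 rose in both lines at both times, GADD45GIP1 groups largely overlapped, and SESN3 stayed near or below 1 CPM.

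GADD45A (ENSG00000116717.11, chromosome 1, 67685201 to 67688334, plus strand, GRCh38) had the highest log2 FC of the 6 tested members at 12 h in both lines. Untreated A2780 libraries of 6 h held 9.33, 11.5 and 11.1 CPM and treated ones 24, 28.2 and 24.3 CPM. At 12 h the untreated libraries held 7.39, 7.99 and 8.58 CPM and the treated ones 85.6, 66.9 and 63.6 CPM. The groups were far apart at both times, and the treated libraries of 12 h also lay above those of 6 h. In A2780cis the untreated libraries of 6 h held 3.33, 4.81 and 5.89 CPM and the treated ones 21.9, 21.2 and 22.7 CPM. The untreated libraries of 12 h held 4.82, 5.11 and 5.51 CPM and the treated ones 53, 50.3 and 49.1 CPM. The log2 FC was 1.26 (SE 0.14, n = 3 per group, edgeR adjusted p = 2.10e-07) in A2780 at 6 h and 3.17 (SE 0.14, adjusted p = 1.43e-15) at 12 h. In A2780cis it was 2.22 (SE 0.15, edgeR adjusted p = 8.88e-11) at 6 h and 3.30 (SE 0.14, adjusted p = 1.16e-15) at 12 h.

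Ordered by mean, the 8 groups ran from untreated A2780cis to untreated A2780, then treated cells of 6 h, then treated cells of 12 h, with A2780cis below A2780 within each step. Of the 7 pairs of neighbours in that order, 1 overlapped, namely untreated A2780cis of 6 h and of 12 h. The genes with the most similar pattern over the 8 group means were ANKRA2 (Pearson r = 0.994), SYTL4 (r = 0.992) and ZNF552 (r = 0.991), among 10756 protein-coding candidates. These correlations share libraries and depth, and they describe 8 points only.

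GADD45B (ENSG00000099860.8, chromosome 19, 2476122 to 2478259, plus strand) also rose everywhere, and its A2780cis cells started from a higher level. In A2780 the untreated libraries of 6 h held 9.83, 10.1 and 8.37 CPM and the treated ones 27.4, 28.2 and 23.0 CPM. At 12 h these were 8.65, 7.82 and 8.48 CPM untreated and 35.7, 36.1 and 38.3 CPM treated. Untreated A2780cis of 6 h held 25.4, 17.6 and 22.4 CPM, which overlapped treated A2780 of the same time, and the treated libraries held 36.4, 38.7 and 42.5 CPM. At 12 h untreated A2780cis held 18.6, 22.7 and 23.9 CPM and treated A2780cis 71.3, 80.3 and 87.2 CPM, the highest values of GADD45B among the 24 libraries. The log2 FC was 1.47 (SE 0.14) at 6 h and 2.14 (SE 0.13) at 12 h in A2780, and 0.85 (SE 0.13) and 1.87 (SE 0.12) in A2780cis, with edgeR adjusted p-values of at most 1.35e-05.

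Of the 7 pairs of neighbours in the order of GADD45B levels, 4 overlapped, among them untreated A2780cis and treated A2780 of 6 h. FOSL2, an AP-1 subunit, followed GADD45B most closely over the 8 group means (r = 0.990), followed by the cytokine IL11 (r = 0.988) and the immediate early gene IER5 (r = 0.986).

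The stretch before the GADD45B start is shown because this paralog was expressed in every library, and because it is the one member window with both a TATA box and CCAAT boxes. It is taken from RefSeq (build GRCh38.p14, chr19:2475877-2476121, plus strand, 245 bases ending before the first annotated base) and is printed 5′ to 3′ with matches in capitals.

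GADD45B: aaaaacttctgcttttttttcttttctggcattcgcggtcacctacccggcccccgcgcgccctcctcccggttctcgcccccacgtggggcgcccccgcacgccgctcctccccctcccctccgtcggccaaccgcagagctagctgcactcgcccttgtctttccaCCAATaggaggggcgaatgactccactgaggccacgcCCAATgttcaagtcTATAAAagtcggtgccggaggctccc

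The capitals mark 2 CCAAT boxes (CCAAT on either strand) and 1 TATA box (TATAAA on either strand). A window of 300 bases around the start, 250 before and 50 after, was searched for each of the 8 RefSeq starts of 6 members, while GADD45A has no window here. CCAAT boxes stood in windows of 4 members (GADD45B, GADD45G, SESN1 and SESN2), and 34.6% of the 35116 windows of all genes hold one. A TATA box stood in the windows of GADD45B and GADD45GIP1, beside 11.5% of all windows.

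GADD45G (ENSG00000130222.10, chromosome 9, 89605012 to 89606555, plus strand), the remaining GADD45 paralog, had 0 counts in all 24 libraries. A count of 0 allows up to 3 counts, which is 0.141 to 0.301 CPM per library, by counting error only. Its expression was not detectable at this depth in either line, with or without the drug. It was the only member whose window held the ATF4 response element (TGATGNAA on either strand), which 3.62% of all windows hold.

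The 2 expressed GADD45 paralogs responded unequally at 12 h. To compare them, the level of one was divided by that of the other within each library, so that scaling cancels. Treatment labels were then permuted within each line, which gives 400 assignments and 0.005 as the smallest p of this exact test. At 12 h the response of GADD45A exceeded that of GADD45B by 1.21 on the log2 scale, with 1.02 in A2780 and 1.40 in A2780cis (exact permutation test, two-sided, p = 0.005, adjusted p = 0.0133 over 8 paralog tests). At 6 h the difference was 0.59 over both lines, with -0.21 in A2780 and 1.38 in A2780cis, and it did not pass (exact permutation test, p = 0.09, adjusted p = 0.103).

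Per kilobase of exon, GADD45A made up 51.3%, 55.9% and 59.6% of the 2 paralogs together in untreated A2780 of 6 h, and 49.4%, 52.6% and 53.9% after 6 h of treatment. These groups overlapped. At 12 h its share was 48.7%, 53.2% and 52.9% in untreated and 72.7%, 67.3% and 64.8% in treated A2780. In untreated A2780cis, GADD45B was the major paralog, with a GADD45A share of 12.7%, 23.2% and 22.6% at 6 h and of 20.9% ± 1.3 (SD, n = 3) at 12 h. Treatment raised the share to 40.1%, 37.9% and 37.2% at 6 h and to 45.2%, 41% and 38.5% at 12 h, so GADD45B remained the larger of both in every A2780cis library. No treated library of A2780cis overlapped an untreated one in this share.

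**Figure D2:**
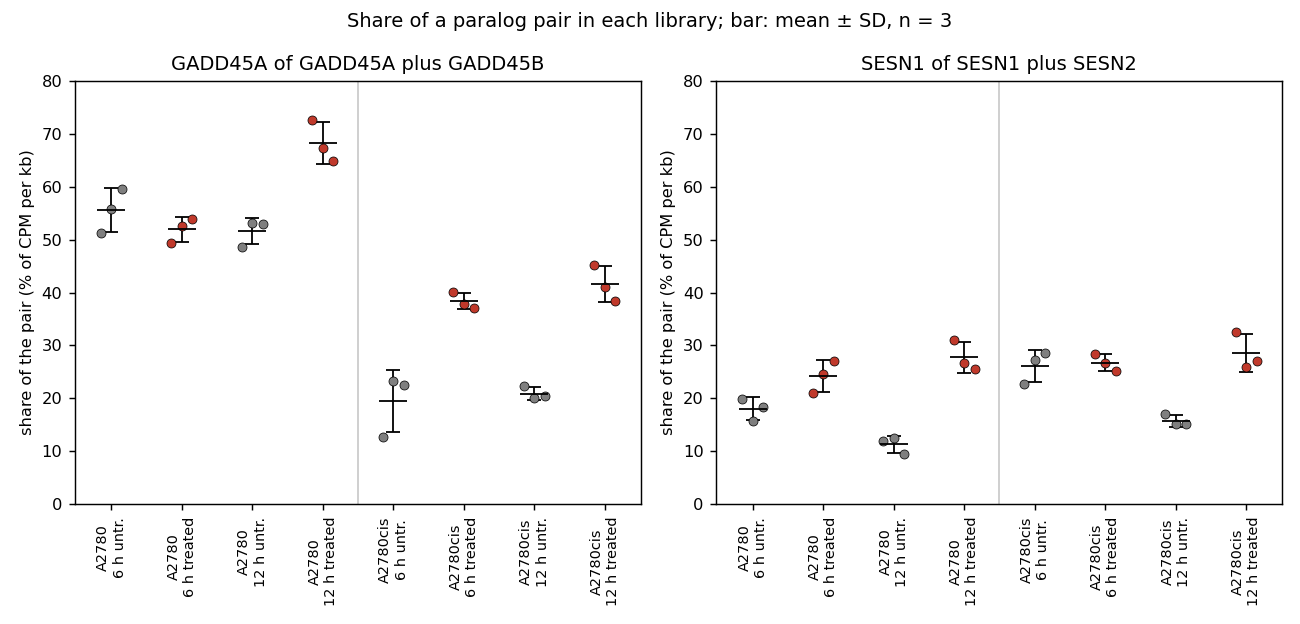
Share of GADD45A in the sum of GADD45A and GADD45B, and of SESN1 in the sum of SESN1 and SESN2, in percent of CPM per kilobase of exon, for every library of the 8 groups, with the mean and SD of 3 libraries. The GADD45A share was about 20% in untreated A2780cis and about 50% in untreated A2780. At 12 h the share of the first gene was higher in treated than in untreated libraries for both pairs. The untreated SESN1 share was lower at 12 h than at 6 h in both lines.

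SESN1 (ENSG00000080546.13, chromosome 6, 108984309 to 109094846, minus strand) was up-regulated in both lines and further at 12 h. Untreated A2780 libraries held 20.7, 20.1 and 23.8 CPM at 6 h and treated ones 52.6, 58.3 and 62.2 CPM. At 12 h these were 18.9, 19.3 and 16.3 CPM untreated and 90.4, 81.2 and 80.3 CPM treated. A2780cis had lower values throughout, with 8.69, 9.93 and 11 CPM untreated and 31.0, 32.9 and 30.4 CPM treated at 6 h. At 12 h the untreated A2780cis libraries held 8.67, 8.42 and 8.64 CPM and the treated ones 54.8, 47.1 and 47.3 CPM. The log2 FC was 1.42 (SE 0.11) and 2.21 (SE 0.11) in A2780, and 1.67 (SE 0.11) and 2.53 (SE 0.11) in A2780cis, at 6 h and 12 h respectively, with edgeR adjusted p-values of at most 2.83e-10.

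In the order of SESN1 levels, 1 of the 7 pairs of neighbours overlapped, namely treated A2780cis of 12 h and treated A2780 of 6 h. CDKN1A, which encodes p21 and is the textbook p53 target, had the pattern most like that of SESN1 (r = 0.989), followed by ZBTB34 (r = 0.989) and the cytokine LIF (r = 0.987). SESN1 shares 363 exon bases with a lncRNA gene on the other strand, ENSG00000271730, which had at most 184 counts in a library. The strand setting of the counting is not given in the sources used here, so reads over the shared bases cannot be told apart. This lncRNA gene had log2 FC of 1.54 and 2.38 in A2780 and of 1.81 and 2.38 in A2780cis at 6 h and 12 h.

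One of the 3 RefSeq windows of SESN1 held a p53 half-site, the 10-base unit of which p53 tetramers bind a pair. Of all windows, 6.63% hold such a match, and none of the windows of the other members did. It is shown with its neighbouring bases (GRCh38.p14, chr6:109009018-109009047, minus strand), which lie inside an intron of the 2 SESN1 transcripts that span them in GENCODE, and the capitals mark the match.

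SESN1 half-site: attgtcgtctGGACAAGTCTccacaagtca

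SESN2 (ENSG00000130766.4, chromosome 1, 28259518 to 28282491, plus strand) rose with treatment in both lines, but no gain of its response from 6 h to 12 h passed the test. In A2780 the untreated libraries of 6 h held 39.7, 51.3 and 50.1 CPM and the treated ones 94.4, 85.1 and 80.1 CPM. At 12 h these were 66, 64.6 and 74.3 CPM untreated and 95.6, 106.5 and 111.1 CPM treated. Untreated libraries had thus also risen between the time points. In A2780cis the untreated libraries held 14.1, 12.6 and 13.2 CPM at 6 h and the treated ones 37.1, 43.0 and 43.2 CPM. At 12 h they were 20.1, 22.5 and 23.1 CPM untreated and 53.9, 64.3 and 60.5 CPM treated. Treated A2780cis of 6 h overlapped untreated A2780 of 6 h, and treated A2780cis of 12 h lay just below untreated A2780 of 12 h. The log2 FC was 0.88 (SE 0.11) and 0.61 (SE 0.10) in A2780 and 1.63 (SE 0.12) and 1.44 (SE 0.11) in A2780cis, with edgeR adjusted p-values of at most 1.59e-05.

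DDIT4, another stress-induced inhibitor of mTORC1 and a target of ATF4, had the pattern most like that of SESN2 over the 8 groups (r = 0.978), followed by the ferritin light chain gene FTL (r = 0.978) and PPT2 (r = 0.974). The 250 bases before the SESN2 start (GRCh38.p14, chr1:28259268-28259517, plus strand) are shown for comparison with GADD45B, as the other window with 2 CCAAT boxes.

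SESN2: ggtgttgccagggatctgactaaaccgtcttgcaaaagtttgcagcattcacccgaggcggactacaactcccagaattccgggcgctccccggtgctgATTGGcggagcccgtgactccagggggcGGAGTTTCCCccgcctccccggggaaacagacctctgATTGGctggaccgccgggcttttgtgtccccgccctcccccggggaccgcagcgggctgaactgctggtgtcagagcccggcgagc

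The capitals mark the 2 CCAAT boxes, both on the other strand, and 1 kappa B site, which 5.91% of all windows hold and which was also found in the window of GADD45GIP1. Neither a p53 half-site nor the ATF4 response element was in the SESN2 window. AP-1 (TGANTCA) and FOXO (GTAAACA) sites, searched on both strands, were found in 0 member windows, where 7.71% and 3.42% of all windows hold them. These matches describe letters only.

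SESN1 responded more than SESN2 at 12 h, by 1.33 on the log2 scale, with 1.59 in A2780 and 1.08 in A2780cis (exact permutation test, two-sided, p = 0.005, adjusted p = 0.0133). At 6 h the difference was 0.29, with 0.53 in A2780 and 0.05 in A2780cis (exact permutation test, p = 0.08, adjusted p = 0.103). Per kilobase of exon, SESN2 was the major sestrin in every library. The share of SESN1 in both was 11.3% ± 1.6 (SD, n = 3) in untreated and 27.7% ± 2.9 in treated A2780 of 12 h, and 15.7% ± 1.1 and 28.5% ± 3.6 in A2780cis. At 6 h it was 18.0% ± 2.1 untreated and 24.2% ± 3.0 treated in A2780, and 26.1% ± 3.1 and 26.8% ± 1.7 in A2780cis. From 6 h to 12 h the mean share thus fell more in untreated cells than it rose in treated ones, in both lines. Treated A2780cis of 12 h overlapped untreated A2780cis of 6 h in this share.

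SESN3 (ENSG00000149212.11, chromosome 11, 95165513 to 95232541, minus strand) had at most 24 counts in a library. Untreated A2780 held 8, 7 and 9 counts at 6 h and 10, 6 and 13 at 12 h, and treated A2780 held 7, 7 and 12 counts at 6 h and 11, 19 and 24 at 12 h. Untreated A2780cis held 0, 0 and 0 counts at 6 h and 0, 1 and 4 at 12 h, and treated A2780cis held 4, 0 and 3 counts at 6 h and 7, 2 and 2 at 12 h. No response of SESN3 passed the threshold (edgeR adjusted p between 0.0696 and 0.915). At 12 h in A2780 the log2 FC was 0.79 (95% confidence interval -0.05 to 1.63, adjusted p = 0.105), although the treated libraries (0.771 to 1.17 CPM) lay above the untreated ones (0.347 to 0.668 CPM). This rise passed when counts were scaled by library size alone (1.01, adjusted p = 0.0433) and when the compared groups were fitted alone (0.81, adjusted p = 0.0421), so the call depends on the setting. In A2780cis the log2 FC was 4.25 at 6 h (95% confidence interval 0.62 to 7.87, edgeR adjusted p = 0.0696), from untreated counts of 0. It passed without the filter (adjusted p = 0.0440) and without treated replicate 2 (adjusted p = 0.0377). At 12 h in A2780cis the log2 FC was 1.28 (edgeR adjusted p = 0.179), and 2.76 without untreated replicate 3 (adjusted p = 0.0336). Because SESN3 lay close to the floor, tests of SESN1 or SESN2 against it depended on the prior count. The response of SESN1 exceeded that of SESN3 by 1.67 at 12 h (exact permutation test, adjusted p = 0.0133), but with a prior count of 0.5 instead of 2 the difference was 1.32 and did not pass (adjusted p = 0.0667). At 6 h SESN1 exceeded SESN3 by 1.05 (exact permutation test, adjusted p = 0.03) and SESN2 exceeded SESN3 by 0.76 (adjusted p = 0.048). These calls were lost in 2 and in 10 of the 12 leave-outs of single libraries, with adjusted p up to 0.06 and 0.112. In the edgeR fit of A2780cis at 6 h the order was the other way. There the log2 FC of SESN3 (4.25) lay above those of SESN1 (1.67) and SESN2 (1.63).

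GADD45GIP1 (ENSG00000179271.2, chromosome 19, 12953119 to 12957223, minus strand) behaved unlike the other members. It rose at 6 h and did not at 12 h. Untreated A2780 of 6 h held 26.6, 44.7 and 44.5 CPM and treated A2780 70.1, 53.4 and 41.8 CPM, and these groups overlapped. At 12 h A2780 held 62.4, 54.0 and 64.1 CPM untreated and 35.1, 40.3 and 48.4 CPM treated. In A2780cis it was at 33.0, 26.2 and 43.9 CPM untreated and 44.1, 53 and 61.1 CPM treated at 6 h. At 12 h the A2780cis groups overlapped, with 64.6, 68.5 and 79.7 CPM untreated and 72.2, 64.8 and 84.0 CPM treated. The log2 FC in A2780 was 0.52 (SE 0.20, edgeR adjusted p = 0.0482) at 6 h and -0.54 (SE 0.19, adjusted p = 0.0185) at 12 h. In A2780cis it was 0.62 (SE 0.20, edgeR adjusted p = 0.0190) at 6 h and 0.05 (SE 0.19, adjusted p = 0.826) at 12 h.

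These 3 calls rested on single libraries. The rise in A2780 at 6 h was lost without untreated replicate 1 (0.30), treated replicate 1 (0.31) or treated replicate 2 (0.54), with edgeR adjusted p between 0.0144 and 0.323 over the 6 leave-outs. The fall at 12 h was lost without untreated replicate 3 (-0.50), treated replicate 1 (-0.46) or treated replicate 2 (-0.53), with adjusted p between 0.0108 and 0.0735. The rise in A2780cis at 6 h was lost without untreated replicate 1 (0.58), untreated replicate 2 (0.45) or treated replicate 3 (0.49), with adjusted p between 0.00540 and 0.127. The rise in A2780 at 6 h also lost its call in 4 of 8 other settings. In the DESeq2 Wald test it was 0.48 (adjusted p = 0.0550). In edgeR it was 0.48 with DESeq2 size factors (adjusted p = 0.0626) and 0.49 with lncRNA and rRNA genes removed (adjusted p = 0.0592). With the compared groups fitted alone it was 0.52 (edgeR adjusted p = 0.0688). Scaled by library size alone, the fall in A2780 at 12 h was -0.32 (adjusted p = 0.185). Some exon bases of GADD45GIP1 are annotated on both strands, and reads over them cannot be told apart.

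**Figure D3:**
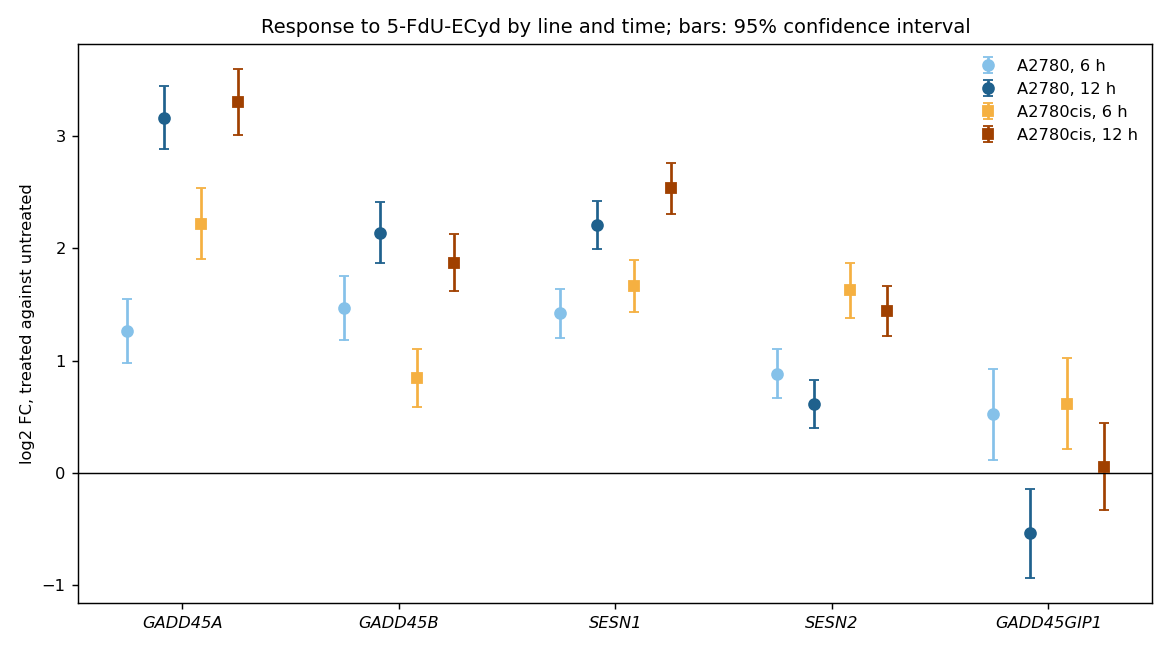
log2 FC of treated against untreated cells (y axis, 95% confidence interval) for 5 members in A2780 (circles) and A2780cis (squares) at 6 h (light) and 12 h (dark). GADD45A, GADD45B and SESN1 were higher at 12 h than at 6 h in both lines, whereas SESN2 was not, and GADD45GIP1 lay below 0 in A2780 at 12 h only.

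To ask whether the response grew with time, the log2 FC of 12 h was tested against that of 6 h. In A2780, 3 members responded more at 12 h and 1 less, where 10.7% of all genes tested had a higher and 13% a lower response (23.7% either way). GADD45A gained 1.90 on the log2 scale (SE 0.19, edgeR adjusted p = 4.02e-07), SESN1 0.79 (SE 0.15, adjusted p = 4.43e-04) and GADD45B 0.67 (SE 0.19, adjusted p = 0.0116). GADD45GIP1 dropped by 1.06 (SE 0.27, edgeR adjusted p = 0.00647). In A2780cis, 3 members responded more at 12 h, against 10.3% of all genes (24% either way). These were GADD45A with 1.08 (SE 0.21, adjusted p = 6.90e-04), GADD45B with 1.03 (SE 0.17, adjusted p = 1.57e-04) and SESN1 with 0.87 (SE 0.16, edgeR adjusted p = 3.21e-04). For SESN2 the change was -0.27 in A2780 (95% confidence interval -0.57 to 0.03) and -0.18 in A2780cis (-0.51 to 0.15), so a gain above 0.03 or 0.15 lay outside these intervals.

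The drug response was next compared between the lines. At 6 h, 2 members responded more in A2780cis, where 0.692% of all genes did (3.07% in either direction). The response of GADD45A was 0.96 higher on the log2 scale (SE 0.21, edgeR adjusted p = 0.00931) and that of SESN2 0.74 higher (SE 0.16, adjusted p = 0.00720). For GADD45B the difference was -0.62 (SE 0.19, edgeR adjusted p = 0.0656), and it passed in the DESeq2 Wald test (-0.60, adjusted p = 0.0460). It also passed in edgeR without treated replicate 3 of A2780 (-0.71) or untreated replicate 2 of A2780cis (-0.75). At 12 h, SESN2 was the 1 member that responded more in A2780cis, against 9.7% of all genes (23.7% either way), by 0.83 (SE 0.15, edgeR adjusted p = 2.70e-04). The difference for GADD45A at 12 h was 0.14 (95% confidence interval -0.26 to 0.53). Whether the line difference of GADD45A itself changed between the times was not tested.

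Before treatment the lines differed in 5 of the 6 tested members at each time. Untreated A2780cis had lower levels of 4 members (22.9% of all genes were lower at 6 h and 27.5% at 12 h) and higher levels of 1 (25% and 25.4%, or 47.9% and 52.9% either way). SESN2 differed by -1.82 (SE 0.12, edgeR adjusted p = 6.65e-13) at 6 h and -1.64 (SE 0.11, adjusted p = 7.42e-13) at 12 h. SESN1 differed by -1.12 (SE 0.12) and -1.08 (SE 0.11), and GADD45A by -1.17 (SE 0.16) and -0.64 (SE 0.15), with edgeR adjusted p-values of at most 7.90e-04. GADD45B was the exception, with 1.21 (SE 0.14) and 1.38 (SE 0.13) in favour of A2780cis. SESN3 had 0 counts in untreated A2780cis of 6 h and was at least 7.54-fold higher in A2780, taking 3 counts over the group as the floor. At 12 h SESN3 differed by -2.56 (SE 0.66), or by -4.05 to -1.96 with single libraries left out. SESN3 passed the filter on low counts only through A2780 libraries, so the filter favoured its call as lower in A2780cis. It adds no support to the count of 4 lower members. GADD45GIP1 differed by -0.15 (95% confidence interval -0.57 to 0.26) and 0.24 (-0.15 to 0.62).

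Untreated cells also changed between 6 h and 12 h of culture. In A2780, SESN2 rose by 0.54 (SE 0.11, edgeR adjusted p = 0.00146) and GADD45GIP1 by 0.65 (SE 0.19, adjusted p = 0.0168), and GADD45A fell by 0.41 (SE 0.15, adjusted p = 0.0413), so that 3 of 6 members were called where 26.9% of all genes were. The GADD45A call was lost whichever of the 6 libraries was left out (edgeR adjusted p between 0.0525 and 0.144, log2 FC between -0.50 and -0.34). The GADD45GIP1 call was lost without replicate 1 of 6 h (0.43) or replicate 3 of 12 h (0.60), so 1 or 2 members remained called in these leave-outs. In A2780cis, SESN2 rose by 0.72 (SE 0.12, adjusted p = 9.63e-05) and GADD45GIP1 by 1.04 (SE 0.20, edgeR adjusted p = 2.79e-04), so 2 members were called beside 39.9% of all genes.

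The genes around these members were read from lists chosen with earlier results of these data known, and each list is described by counts and medians. At 12 h they stand beside 28.6% of all tested genes higher and 26.1% lower in A2780, and 31% higher and 28.9% lower in A2780cis. At 6 h these shares were 16% and 13.4% in A2780 and 14.4% and 16.3% in A2780cis. Of 20 other p53 targets, 19 rose and none fell in A2780 at 6 h, and 20 rose at 12 h. In A2780cis 16 rose at 6 h and 18 at 12 h, and none fell at either time. The median log2 FC of the list at 12 h was 2.05 in A2780 and 1.45 in A2780cis, beside 0.02 and 0.04 for all genes tested. CDKN1A rose by 2.89 and 4.12, BTG2, an antiproliferative factor, by 3.86 and 3.23, and TP53I3, a quinone oxidoreductase, by 3.49 and 2.74. TP53INP1, a stress protein of autophagy, rose by 3.54 in A2780 and had a log2 FC of -0.18 (adjusted p = 0.69) in A2780cis, where its untreated level was 4.33 lower on the log2 scale. The difference of its response between the lines was -3.72 and passed. Between untreated lines at 6 h, 5 of the 20 were higher in A2780cis and 5 lower (median -0.07). At 12 h 5 were higher and 7 lower (median -0.10). Of all genes, 25% were higher and 22.9% lower at 6 h, and 25.4% and 27.5% at 12 h. The response at 12 h was higher in A2780cis for 2 and lower for 7 (median difference -0.27), beside 9.7% and 14% of all genes. At 6 h it was higher for 0 and lower for 4 (-0.06), beside 0.692% and 2.38%.

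ATF4 targets other than SESN2 did not move as one group with treatment. Of 14, 6 rose and 7 fell in A2780 at 12 h, and 7 rose and 3 fell in A2780cis. Between untreated lines, however, 10 of 14 were lower in A2780cis at 6 h and 11 at 12 h, where 22.9% and 27.5% of all genes were. The list medians were -1.49 and -1.63 on the log2 scale beside 0.01 and -0.01 for all genes. SESN2 lay at -1.82 and -1.64, DDIT4 at -1.79 and -2.00, the transcription factor ATF3 at -2.74 and -2.90, and the chromatin protein gene NUPR1 at -4.53 and -4.18. PPP1R15A, which is also called GADD34 but is a phosphatase subunit, was higher in A2780cis by 0.68 at 6 h. In the response at 6 h, 0 of the 14 were higher in A2780cis than in A2780 and 0 were lower, with a median difference of 0.12. Of all genes, 0.692% had a higher and 2.38% a lower response at 6 h. The response of SESN2 was already 0.74 higher in A2780cis at that time, so it stood apart from this list. In the response at 12 h, 7 of the 14 were higher in A2780cis than in A2780 and 1 was lower, with a median difference of 0.54. Of all genes, 9.7% had a higher and 14% a lower response there. The response of DDIT4 at 12 h differed by 0.83 between the lines, as did that of SESN2. ATF4 mRNA was 1.12 lower in untreated A2780cis at 12 h and fell by 0.39 with treatment in that line.

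**Figure D4:**
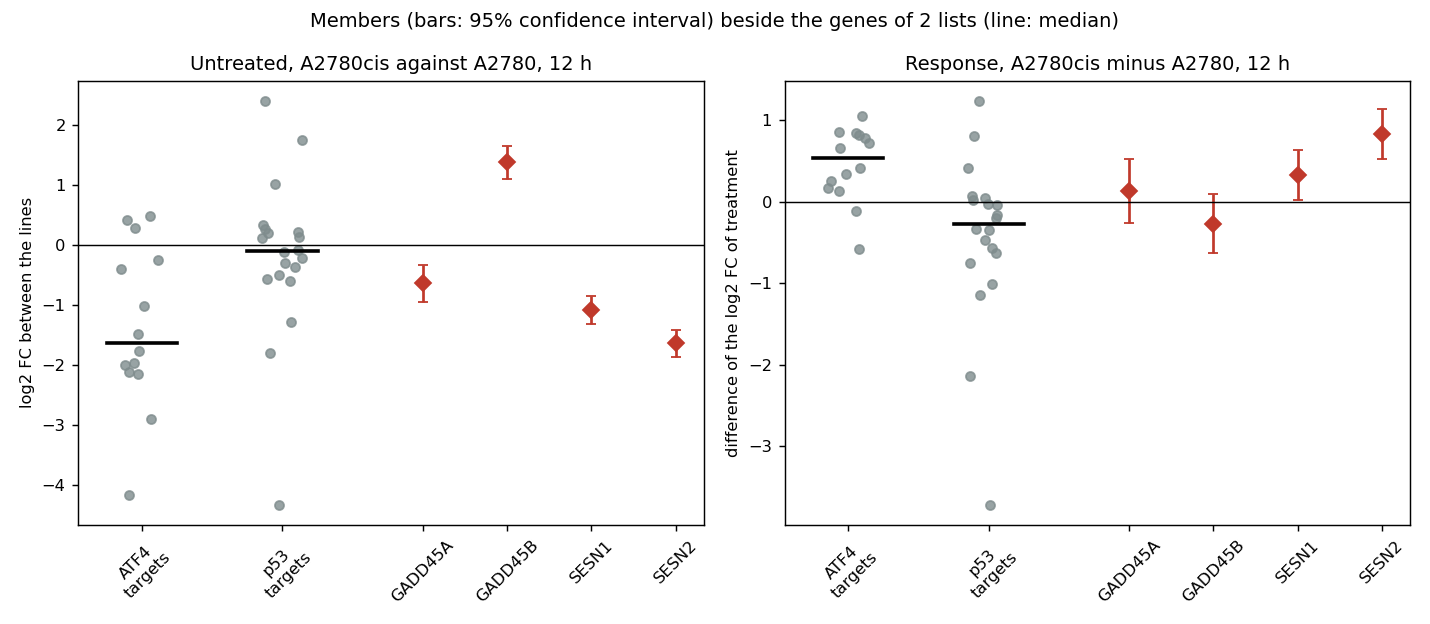
Left, log2 FC between untreated A2780cis and untreated A2780 at 12 h, and right, difference of the treatment log2 FC between the lines at 12 h, for the 14 ATF4 targets and 20 p53 targets (grey points, median as a line) and for 4 members (red, 95% confidence interval). SESN2 lay close to the ATF4 list median in the left panel (-1.64 and -1.63), and GADD45B was the member above 0.

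Of 17 proteins that bind GADD45 proteins or act just below them, 4 rose and 7 fell in A2780 at 12 h, and 3 rose and 12 fell in A2780cis (medians -0.20 and -0.55), or 23.5% higher and 41.2% lower and then 17.6% higher and 70.6% lower. The risers included CDKN1A and PCNA, which rose by 1.34 and 0.85. MAP3K4, the kinase that GADD45 proteins activate, fell by 0.50 and 0.99, and CCNB1, the mitotic cyclin, fell by 1.46 and 2.13.

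In the GATOR and mTORC1 list, the machinery through which sestrins act, 5 of 32 tested genes rose and 12 fell in A2780 at 12 h, and 5 rose and 15 fell in A2780cis (medians -0.20 and -0.31), or 15.6% higher in each line and 37.5% and 46.9% lower. RPTOR, the scaffold of mTORC1, fell by 1.60 and 2.49, and SEH1L, a subunit of GATOR2, fell by 0.81 and 0.94. RRAGD, a lysosomal Rag GTPase, rose by 1.15 in A2780 and had a log2 FC of 0.02 (adjusted p = 0.94) in A2780cis. ITFG2, a subunit of the KICSTOR complex, fell by 0.79 in A2780cis and had a log2 FC of 0.14 (adjusted p = 0.24) in A2780.

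Of 18 tested genes of AMPK, autophagy and the peroxide pathway, 4 rose and 2 fell in A2780 at 12 h, and 11 rose and 3 fell in A2780cis. In A2780 these shares, 22.2% higher and 11.1% lower, lay below those of all genes (28.6% and 26.1%), and in A2780cis 61.1% were higher and 16.7% lower. The AMPK beta subunits PRKAB1 and PRKAB2 rose by 2.07 and 2.28 in A2780 and by 1.12 and 1.61 in A2780cis. ULK1, which starts autophagy, rose by 1.31 in A2780cis and had a log2 FC of 0.29 (adjusted p = 0.21) in A2780. NFE2L2, the antioxidant transcription factor that sestrins help to activate, fell by 0.51 in A2780cis. At 6 h, 38.9% of this list was higher and 16.7% lower in A2780, beside 16% and 13.4% of all genes. In A2780cis 33.3% was higher and 11.1% lower at 6 h, beside 14.4% and 16.3% of all genes.

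Among 18 tested factors known to regulate these families, 6 rose and 5 fell in A2780 at 12 h, and 5 rose and 12 fell in A2780cis. The shares in A2780, 33.3% higher and 27.8% lower, were near those of all genes (28.6% and 26.1%), and in A2780cis they were 27.8% and 66.7%. EGR1 rose by 2.47 and 1.03. SMAD3, through which TGF-beta induces GADD45B, rose by 1.92 in A2780 and fell by 0.47 in A2780cis, a line difference of -2.39 that passed. NFKB1 fell by 1.16 in A2780cis, and MYC, a repressor of GADD45A, fell by 1.44 and 0.55. At 6 h, 11.1% of these factors were higher and 33.3% lower in A2780, beside 16% and 13.4% of all genes. In A2780cis 5.56% were higher and 55.6% lower at 6 h, beside 14.4% and 16.3% of all genes.

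Of 49 genes of the large mitochondrial ribosomal subunit, the company of GADD45GIP1, 2 rose and 25 fell in A2780 at 12 h (median -0.30), and 11 rose and 13 fell in A2780cis (median -0.06), or 4.08% higher and 51% lower and then 22.4% higher and 26.5% lower. At 6 h, 7 rose and 5 fell in A2780 (14.3% and 10.2%) and 4 rose and 3 fell in A2780cis (8.16% and 6.12%). Those shares lay below the ones of all genes, which were 16% and 13.4% in A2780 and 14.4% and 16.3% in A2780cis. MRPL12 fell by 1.77 and 1.79 at 12 h and MRPL3 by 0.93 and 0.71, MRPL17 fell by 0.72 in A2780, and MRPL49 rose by 1.23 and 0.71. GADD45GIP1, with -0.54 in A2780, had the direction of most called genes of the list there. Over the 8 group means its pattern was most like those of CFAP57 (r = 0.992), JSRP1 (r = 0.983) and the respiratory complex I subunit gene NDUFB7 (r = 0.981). For SESN3 the most similar were UPP1 (r = 0.991), TAGLN (r = 0.987) and UBA7 (r = 0.986), at counts close to the floor.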

How the data were processed

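RNA of 24 samples of A2780 and A2780cis cells was sequenced. The study's methods and notes name Trimmomatic for trimming, STAR 2.5.2b for alignment to GRCh38 (GRCh38.p7) and featureCounts for counting over exons. The values the authors deposited are expected counts, not normalized: reads with several alignments gave fractions, reads over several genes counted for each, and 9.50% to 12.8% of entries per library are not whole. The labels name single reads and the paper paired ends, and the strand setting is not given in the sources used here.

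Counts were rounded and fitted in R 4.3.3 with edgeR 4.0.16 (TMM, filterByExpr with minimum count 10 and total 15, 1 coefficient per group, all 24 libraries, quasi-likelihood test, two-sided, 12 contrasts). The SE is the size of the log2 FC over the square root of F. Log2 CPM for paralog tests used a prior count of 2. DESeq2 1.42.0, other scalings and filters, and leaving out each library were alternatives. Identifiers were looked up in GENCODE 44, and promoter windows came from RefSeq. Counts were also simulated from the mean level and spread of each gene over all 24 libraries. In them, 200 genes were changed by a fold of 2 in treated A2780 of 12 h. The fit called 182 of these and 7 of 18977 unchanged genes. In the data 54.8% of genes were called in that comparison, so the check does not cover a shift of that size. Figures used Python 3.11.15 and matplotlib 3.10.9. The members and lists were chosen with earlier results of these data known. Named genes were all members, up to 4 called genes per list with the smallest p at 12 h, and the 3 protein-coding genes (mean log2 CPM of at least 2) most correlated with each tested member. ATF4 and a lncRNA gene overlapping SESN1 were named after their values were seen. Some genes of the lists and overlaps are not reported here. Intervals and floors cover counting error or the spread between these libraries only.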

Additional observations from a re-analysis of the deposited data

Results flagged for a closer look

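Of the response differences between lines or times, 10 passed the quasi-likelihood test of edgeR after Benjamini-Hochberg adjustment. Between the lines, the response of GADD45A at 6 h was 0.96 higher on the log2 scale in A2780cis, and that of SESN2 was 0.74 higher at 6 h and 0.83 higher at 12 h. Between the times in A2780, the response at 12 h minus that at 6 h was 1.90 for GADD45A, 0.79 for SESN1, 0.67 for GADD45B and -1.06 for GADD45GIP1. In A2780cis it was 1.08 for GADD45A, 1.03 for GADD45B and 0.87 for SESN1. Groups of 3 libraries were too small for a test of single outlying libraries.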

How the results depend on the processing

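Under other settings, 539 values of single members kept their direction and side of the threshold, 9 newly passed (SESN3 3 times, GADD45GIP1 3, SESN1 2 and GADD45B once), 7 no longer passed and 5 changed sign. All 5 were GADD45B in untreated A2780cis between 6 h and 12 h (-0.01, not called), which became 0.00367 with DESeq2 size factors, 0.164 by library size alone, 0.0431 without a filter, 0.0704 with the compared groups alone and 0.00723 in the DESeq2 Wald test. By library size alone the median of all genes at 12 h was 0.24 in A2780 and 0.15 in A2780cis. Members with a line difference at 12 h numbered 1, and 2 without a filter and with the compared groups alone, where GADD45GIP1 passed. With a prior count of 0.5, SESN1 minus SESN3 was 0.553 at 6 h and 1.32 at 12 h and SESN2 minus SESN3 was 0.259 at 6 h and -0.0161 at 12 h, none of them passing.

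Without one library each, 538 values kept direction and call, 5 newly passed, 17 no longer passed and 16 changed sign. Members called in untreated A2780 between the times numbered 1 to 2. The values that changed sign were not called in the full fit. They ranged from -0.124 to 0.227 for SESN3 in A2780 at 6 h, from -0.382 to 1.97 for its line difference at 12 h, from -0.0657 to 0.344 for GADD45A and from -0.138 to 0.112 for GADD45B in untreated A2780cis between the times. For GADD45GIP1 they ranged from -0.0706 to 0.317 for the line difference at 6 h, from -0.374 to 0.00575 between untreated lines at 6 h and from -0.0798 to 0.139 in A2780cis at 12 h. SESN1 minus SESN3 at 6 h was 0.795 to 1.26 and lost its call in 2 of 12 leave-outs, and SESN2 minus SESN3 at 6 h was 0.503 to 1.00 and lost it in 10.

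Replicate numbers are shared by the groups, but only 1 of 12 same-numbered pairs correlated over 0.1 (r between -0.254 and 0.312), so they were not taken as pairs. With a replicate block the paralog differences were 1.05 and 0.756 (SESN1 and SESN2 minus SESN3, 6 h), 1.21 (GADD45A minus GADD45B, 12 h), 1.33 and 1.67 (SESN1 minus SESN2 and minus SESN3, 12 h), and that design is too small for an adjusted p under the threshold. Genes with few counts, here GADD45G with 0 and SESN3 with at most 24 in a library, are limited by depth.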
